A study of Mus musculus with 6 samples.

Results

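Clade B serpins of mouse chromosome 13 form a gene cluster, and 10 of its genes are described here: Serpinb9, Serpinb9b, Serpinb9c, Serpinb9d, Serpinb9e, Serpinb9f, Serpinb9g, Serpinb1a, Serpinb6a and Serpinb6b. They are 10 of the 55471 genes in the deposited expression table, and each was found there once. They were chosen by their RPKM (reads per kilobase and per megaread mapped) in the same libraries that are compared here, because a run of neighbours among them was near 0 in the knockout. Their values are therefore a description and were not tested. The data are polyadenylated RNA of endosteal mesenchymal stromal cells, the stromal cells of the inner bone surface, from C57BL/6J mice. The 3 libraries labelled Bap1 WT carry the floxed allele without Cre (Bap1fl/fl), and the 3 libraries labelled Bap1 cKO carry Prx1-cre with the same floxed allele (Prx1-cre;Bap1fl/fl). Prx1-cre drives recombination in limb bud mesenchyme and its descendants, and Bap1 encodes a deubiquitinase of histone H2A. Neither the age of the mice nor whether each library is a separate animal is in the labels, so every p-value here reflects the spread among 3 samples that may be technical replicates.

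Serpins inhibit proteases by a single-use mechanism: the protease cuts an exposed reactive centre loop, and the serpin changes shape and holds the enzyme in an inactive complex. Clade B serpins lack a classical secretion signal and act mainly inside cells, where they limit the damage done by proteases that leak from granules or lysosomes. Serpinb9 is the inhibitor of granzyme B that shields cytotoxic lymphocytes and other cells from that enzyme, Serpinb1a inhibits neutrophil serine proteases such as elastase, and Serpinb6a is a broadly expressed inhibitor of cathepsin G and trypsin-like proteases. In the mouse, Serpinb9 has been duplicated into a row of paralogs, while the human genome holds SERPINB9 alone.

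The reactive centre loops are shown first because the loop decides which protease a serpin can meet. They are printed for the Serpinb9 paralogs and Serpinb6a. Each line is coding DNA of the reference genome (GRCm38), 5′ to 3′ on the gene's own strand, and lies in the last coding exon. Lower case marks the conserved hinge codons at the start and the conserved codons at the end, and capitals mark the variable stretch between them.
Serpinb9 (chr13:33015693-33015782, + strand): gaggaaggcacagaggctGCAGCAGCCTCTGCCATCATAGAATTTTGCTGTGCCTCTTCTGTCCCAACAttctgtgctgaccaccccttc
Serpinb9b (chr13:33039796-33039894, + strand): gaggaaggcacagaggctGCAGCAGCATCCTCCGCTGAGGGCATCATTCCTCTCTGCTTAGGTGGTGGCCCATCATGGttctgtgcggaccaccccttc
Serpinb9c (chr13:33150044-33150139, - strand): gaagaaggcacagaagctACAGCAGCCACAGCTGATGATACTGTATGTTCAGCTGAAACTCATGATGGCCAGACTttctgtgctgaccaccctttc
Serpinb9d (chr13:33202923-33203018, + strand): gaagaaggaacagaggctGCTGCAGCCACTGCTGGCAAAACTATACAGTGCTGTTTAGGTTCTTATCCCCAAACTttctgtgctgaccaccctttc
Serpinb9e (chr13:33259971-33260066, + strand): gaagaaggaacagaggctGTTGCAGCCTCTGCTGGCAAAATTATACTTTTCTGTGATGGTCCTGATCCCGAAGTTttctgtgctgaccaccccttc
Serpinb9f (chr13:33334491-33334586, + strand): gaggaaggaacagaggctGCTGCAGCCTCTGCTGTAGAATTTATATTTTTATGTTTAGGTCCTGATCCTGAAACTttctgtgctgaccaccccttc
Serpinb9g (chr13:33495121-33495216, + strand): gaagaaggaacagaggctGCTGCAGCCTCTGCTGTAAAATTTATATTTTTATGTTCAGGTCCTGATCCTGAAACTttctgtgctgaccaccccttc
Serpinb6a (chr13:33918107-33918199, - strand): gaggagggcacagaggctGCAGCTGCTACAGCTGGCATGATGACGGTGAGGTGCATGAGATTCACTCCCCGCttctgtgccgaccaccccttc

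Over the whole coding sequence, Serpinb9d, Serpinb9e, Serpinb9f and Serpinb9g shared 94.3 to 98.7% of aligned bases with each other. Their capitals-marked loop stretches were less alike, at 73.7 to 96.5%, with the highest value between Serpinb9f and Serpinb9g. Serpinb9c stood outside this group, with 77.1 to 78.0% of coding bases shared with its 4 members. Serpinb9 and Serpinb9b shared 86.4% of coding bases with each other and 79.1 to 82.9% with Serpinb9d to Serpinb9g. Serpinb6a and Serpinb6b formed another pair at 86.3%, and the 7 Serpinb9 paralogs shared 63.1 to 70.8% with Serpinb1a, Serpinb6a and Serpinb6b.

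**Figure D1:**
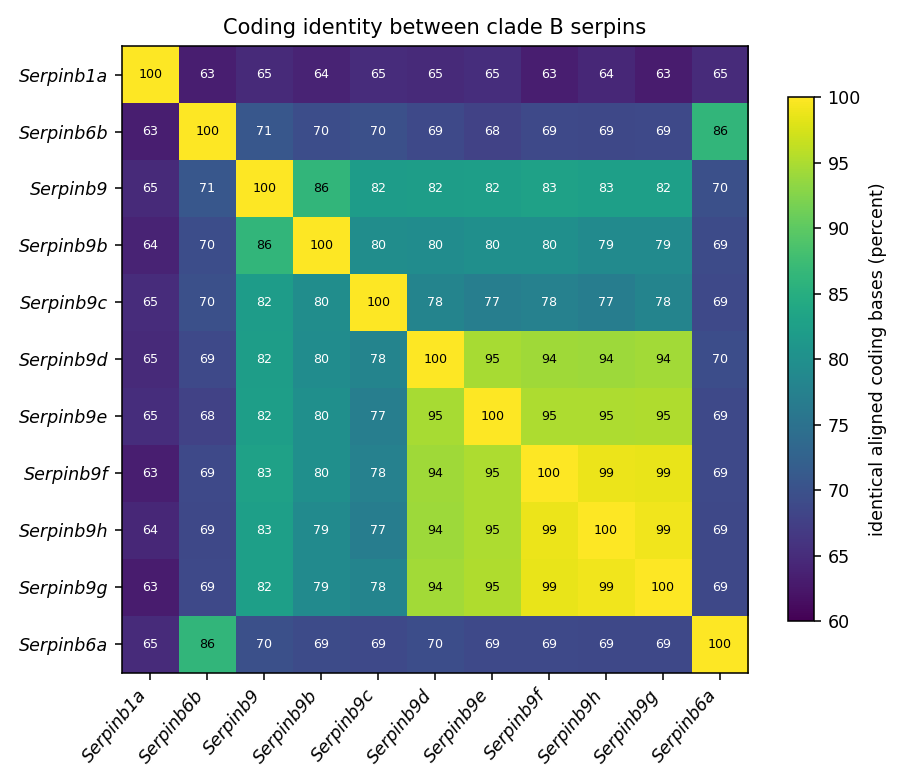
Percent of identical aligned coding bases for each pair of the 10 serpins and of Serpinb9h, a further paralog, in chromosomal order on both axes. Serpinb9d, Serpinb9e, Serpinb9f, Serpinb9h and Serpinb9g form a block of 94% or more, while Serpinb9 and Serpinb9b pair with each other at 86.4%.

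The bases before the start sites are shown for the paralogs that were near 0 and for Serpinb9b, the neighbour that was not. Start sites are those of RefSeq on GRCm38.p6, which gave a window for 9 of the 10 genes and none for Serpinb1a. Each line holds the 150 bases before the start. Capitals mark the longest run that Serpinb9d, Serpinb9e, Serpinb9f and Serpinb9g share, 41 bases, and the 10-base run AGCATGACGT that Serpinb9c shares with them. These 2 runs do not overlap.
Serpinb9b (chr13:33027264-33027413, + strand): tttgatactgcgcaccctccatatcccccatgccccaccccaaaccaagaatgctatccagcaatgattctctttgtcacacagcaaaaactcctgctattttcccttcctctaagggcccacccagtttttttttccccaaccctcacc
Serpinb9c (chr13:33159755-33159904, - strand): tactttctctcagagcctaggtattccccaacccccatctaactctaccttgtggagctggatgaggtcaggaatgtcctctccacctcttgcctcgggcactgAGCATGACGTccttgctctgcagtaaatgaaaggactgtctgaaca
Serpinb9d (chr13:33192805-33192954, + strand): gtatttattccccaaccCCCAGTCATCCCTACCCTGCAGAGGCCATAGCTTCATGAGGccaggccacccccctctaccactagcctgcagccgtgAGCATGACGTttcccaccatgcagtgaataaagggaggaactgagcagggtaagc
Serpinb9e (chr13:33249458-33249607, + strand): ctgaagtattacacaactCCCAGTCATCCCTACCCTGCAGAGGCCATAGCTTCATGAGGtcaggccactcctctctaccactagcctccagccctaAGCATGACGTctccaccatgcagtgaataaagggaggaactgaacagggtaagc
Serpinb9f (chr13:33323927-33324076, + strand): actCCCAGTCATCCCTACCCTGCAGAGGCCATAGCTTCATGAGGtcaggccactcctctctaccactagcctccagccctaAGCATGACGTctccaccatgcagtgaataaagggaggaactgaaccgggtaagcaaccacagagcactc
Serpinb9g (chr13:33484640-33484789, + strand): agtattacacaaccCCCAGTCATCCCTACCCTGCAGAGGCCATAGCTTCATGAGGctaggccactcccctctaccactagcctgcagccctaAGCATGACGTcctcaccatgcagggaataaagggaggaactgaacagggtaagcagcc

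Both strands of the 250 bases before each start were searched for these runs in 27025 genes. The run of 41 bases lay before 4 genes, which were these paralogs and 0.015% of the genes. The run AGCATGACGT lay before 11 genes or 0.041%, the 5 paralogs and Arhgef7, Gm33011, Gm35546, Mib2, Mitf and Nt5c2. Over 250 bases, Serpinb9d to Serpinb9g shared 90.6 to 99.1% of aligned bases, and Serpinb9c shared 70.0 to 71.4% with them. Serpinb9 or Serpinb9b shared 54.6 to 64.0% with Serpinb9d to Serpinb9g. That lies within the 52.8 to 66.8% found between the Serpinb9 paralogs and Serpinb6a or Serpinb6b. CpG dinucleotides before the Serpinb9 paralogs numbered between 1 and 3 in 250 bases, against a median of 5 over all genes. Such low counts were not particular to these paralogs. Serpinb6b also had 3, and 45.0% of all windows had at most 4. Serpinb6a had 20. The motif TATAAA was found on either strand before none of the 9 genes with a window, and before 14.327% of all genes. These matches describe letters in a window and say nothing about which factors bind there.

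The depth estimated from the steps between low values was 13.2 to 22.4 megafragments per library, and 3 fragments per effective kilobase were worth 0.134 to 0.227 RPKM, which covers counting error only. Replicate 3 of the cKO group was the deepest library. The cKO libraries were less alike than the WT libraries: across genes, Pearson's r was 0.948 to 0.974 between cKO libraries and 0.987 to 0.988 between WT libraries. Bap1 itself was at 22.8, 22.72 and 24.01 RPKM in WT and 28.27, 25.16 and 22.99 RPKM in cKO, with an adjusted p of 0.29 (limma, Benjamini-Hochberg over 12223 genes). RPKM of the gene as a whole cannot tell an intact transcript from a shortened one, so this is no check of the deletion and the groups are called by their labels. The 10 stromal markers summed to 2157 to 2290 RPKM in WT and 110.6 to 210.6 RPKM in cKO. Of the 9 tested, 1 was higher and 6 were lower, where 34.7% of all genes tested were higher and 26.5% lower. Eng and Thy1 reached the minimum mean of 1 RPKM through WT alone, which leaves 1 higher, 4 lower and 2 not passed of 7. Most of the WT sum came from Col1a2, Col1a1 and Cxcl12. Their means were 976, 515 and 508 RPKM in WT and 12.4, 33.8 and 31.6 RPKM in cKO. Pdgfrb averaged 97.1 and 3.76 RPKM and Eng 39.4 and 0.723 RPKM, and these genes were all called lower. Thy1 was also lower, at 12.08, 10.65 and 14.81 RPKM in WT and 0, 0 and 0.22 RPKM in cKO (limma adjusted p = 1.22e-05). The markers did not all move alike. Prrx1, the gene whose promoter the Cre line is named for, averaged 75.6 RPKM in WT and 52.4 RPKM in cKO and did not pass. Pdgfra was 1.78-fold higher in cKO. Cd3e, Cd4, Cd8a, Klrb1c, Prf1 and Ncr1 were 0 in every library, and the 10 lymphoid and natural killer cell markers summed to at most 0.35 RPKM. Mast cell markers summed to at most 0.11 RPKM, endothelial to at most 0.65, trophoblast to at most 0.22 and erythroid to at most 2.37. The 9 myeloid markers summed to 13.94 to 16.48 RPKM in WT and 7.93 to 10.4 in cKO with Adgre1 at 0 in every library. Of the 2 myeloid markers tested, Cd68 was 2.97-fold higher in cKO (limma adjusted p = 0.00344). The other, Cd14, made up most of the WT sum and was 5.82-fold lower (limma adjusted p = 6.58e-05). The 7 epithelial markers summed to 12.58 to 14.89 RPKM in WT and 1.96 to 6.01 RPKM in cKO with Cldn4 at 0. Most of this sum was Krt19, at 13.28, 11.73 and 13.73 RPKM in WT and 1.67, 1.74 and 5.79 RPKM in cKO (limma adjusted p = 0.0038). The others were at most 0.79 RPKM in any library, and Epcam was 0 in each WT library. The part of these markers in the serpin values was not tested.

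All 10 serpins averaged 1 RPKM or more across the libraries. In 8 of them every cKO library lay below every WT library, in 2 the groups overlapped, and in none was cKO wholly higher. Over all 12223 genes with such an average, 29.8% had cKO wholly below WT and 39.2% wholly above, and 61.2% passed the limma test in either direction. Nothing is read from these shares for the serpins, because this contrast chose them. The serpins fell into 3 patterns: a run of 5 paralogs near 0 in cKO, 3 genes that were 3.01-fold to 3.66-fold lower in cKO, and Serpinb9b and Serpinb1a with overlapping groups. The median log2 difference of the 10, cKO minus WT on the log2(RPKM + 1) scale, was -1.92, and that of all genes tested was 0.09.

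**Figure D2:**
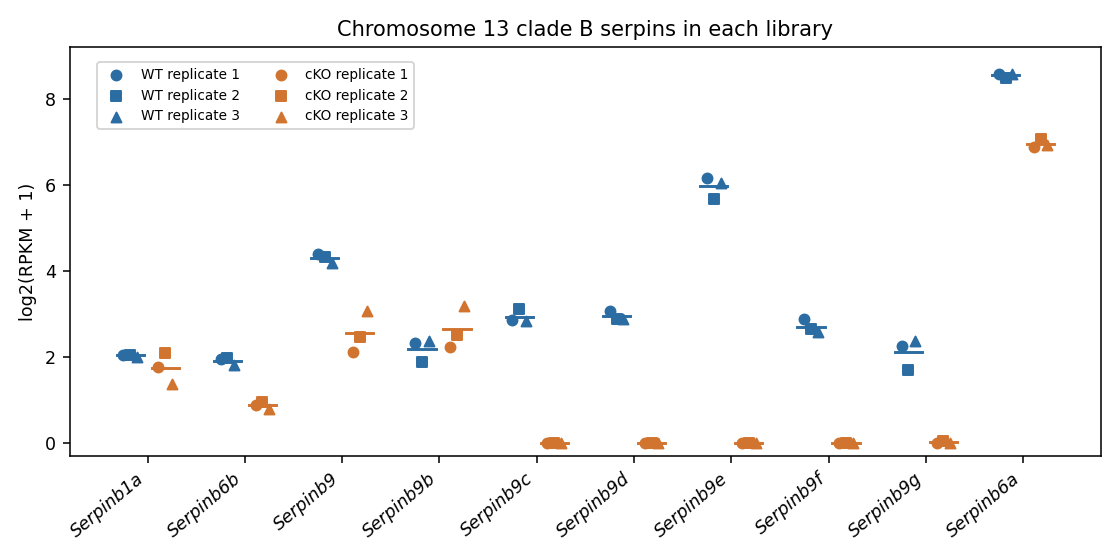
Level of each serpin on the log2(RPKM + 1) scale (vertical axis) in each of the 6 libraries, with genes in chromosomal order; symbols are replicates and bars are group means. Serpinb9c to Serpinb9g sit at or next to 0 in all 3 cKO libraries, Serpinb9, Serpinb6a and Serpinb6b are lower without reaching 0, and the groups overlap for Serpinb9b and Serpinb1a.

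The run of 5 began with Serpinb9c (ENSMUSG00000021404, chr13:33149275-33159742, minus strand in GENCODE M21, GRCm38), with WT values of 6.24, 7.66 and 6.12 RPKM and 0 in each cKO library. Serpinb9d (ENSMUSG00000054266, chr13:33192959-33203129, plus strand) was at 7.42, 6.39 and 6.39 RPKM in WT and again 0 in each cKO library. Serpinb9e (ENSMUSG00000062342, chr13:33249612-33260850, plus strand) was the most abundant paralog, at 71.04, 50.5 and 64.94 RPKM in WT and 0 in each cKO library. Its values rest on the most reads of the run, an estimated 1860, 1190 and 1730 fragments in WT and 0 in cKO. Serpinb9f (ENSMUSG00000038327, chr13:33324077-33335370, plus strand) was at 6.38, 5.25 and 5.03 RPKM in WT and 0 in each cKO library. Serpinb9g (ENSMUSG00000057726, chr13:33484790-33496004, plus strand) was at 3.79, 2.24 and 4.16 RPKM in WT and at 0, 0.04 and 0 in cKO, where 0.04 corresponds to 1 estimated fragment. The 2 groups were thus apart for every gene of the run, and no cKO library held more than a trace of any of them.

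For these 5 genes, 3 fragments were worth between 0.0753 and 0.207 RPKM depending on library and transcript length, so levels below that could not be told from 0. Among the 11688 genes with a WT mean of at least 1 RPKM, 1.1% were listed at 0 in all 3 cKO libraries, as were 4 of the 10 serpins, and 1.52% were at or under 0.05 RPKM in each, as were 5 of the 10. The rule used these values, so the counts describe the choice. Of the members outside the near-0 run, Serpinb6b had the lowest cKO mean, 0.847 RPKM, well above that limit. The non-member Serpinb1b, which lies between Serpinb9b and Serpinb9c, was at 0.57, 0.83 and 0.35 RPKM in WT and 0, 0 and 0.06 in cKO. In bulk RNA, fewer cells of a type that express a gene and less RNA per cell cannot be told apart.

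The closeness of the paralogs limits what each value can be assigned to. Of all windows of 151 bases, the read length, in the GENCODE transcript with the longest coding sequence, 98.9% were found in no other gene for Serpinb9d and 98.1% for Serpinb9e, so these values rest mostly on their own sequence. For Serpinb9f this share was 61.7% and for Serpinb9g 69.2%, with 36.2% and 29.9% of their windows also in Serpinb9h. Serpinb9h (Gm11397 in GENCODE M21) was listed at 0 in all 6 libraries, so the split of shared reads between Serpinb9f, Serpinb9g and Serpinb9h in WT is uncertain. Serpinb9c had 85.7% of windows to itself and shared 14.3% with Gm11385. The other 5 serpins had every such window to themselves.

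Serpinb9 (ENSMUSG00000045827, chr13:33003250-33017957, plus strand), the granzyme B inhibitor, was at 20.01, 19.02 and 17.12 RPKM in WT and 3.36, 4.52 and 7.45 RPKM in cKO. The means were 18.7 ± 1.47 and 5.11 ± 2.11 RPKM (SD, n = 3), 3.66-fold lower in cKO, or 4.75-fold lower without replicate 3, the highest cKO library. No cKO library reached the lowest WT library, and none was at 0. Serpinb9b (ENSMUSG00000021403, chr13:33027416-33041884, plus strand) starts 9.46 kb after Serpinb9 ends and behaved differently. It was at 4, 2.71 and 4.21 RPKM in WT and 3.73, 4.74 and 8.07 RPKM in cKO, so the groups overlapped, with means of 3.64 ± 0.812 and 5.51 ± 2.27 RPKM (SD, n = 3). Replicate 3 was again the highest cKO library for Serpinb9b.

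As a sum, the 7 Serpinb9 paralogs were at 118.9, 93.77 and 108.0 RPKM in WT and 7.09, 9.3 and 15.52 RPKM in cKO. The means of 107 ± 12.6 and 10.6 ± 4.37 RPKM (SD, n = 3) were 10.05-fold apart, or 13.04-fold without cKO replicate 3. Their make-up also differed between the groups. In WT, Serpinb9e gave 59.8, 53.9 and 60.1% of the sum and the run of Serpinb9c to Serpinb9g gave 79.8, 76.8 and 80.2%, against 0, 0.43 and 0% for that run in cKO. Serpinb9 gave 16.8, 20.3 and 15.9% of the sum in WT and 47.4, 48.6 and 48.0% in cKO. Serpinb9b gave 3.36, 2.89 and 3.9% in WT and 52.6, 51.0 and 52.0% in cKO. The ratio of Serpinb9b to Serpinb9 was 0.2, 0.142 and 0.246 in WT and 1.11, 1.05 and 1.08 in cKO. This ratio was nearly the same in the 3 cKO libraries although the level of both genes differed between them, and replicate 3 did not stand apart in it.

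**Figure D3:**
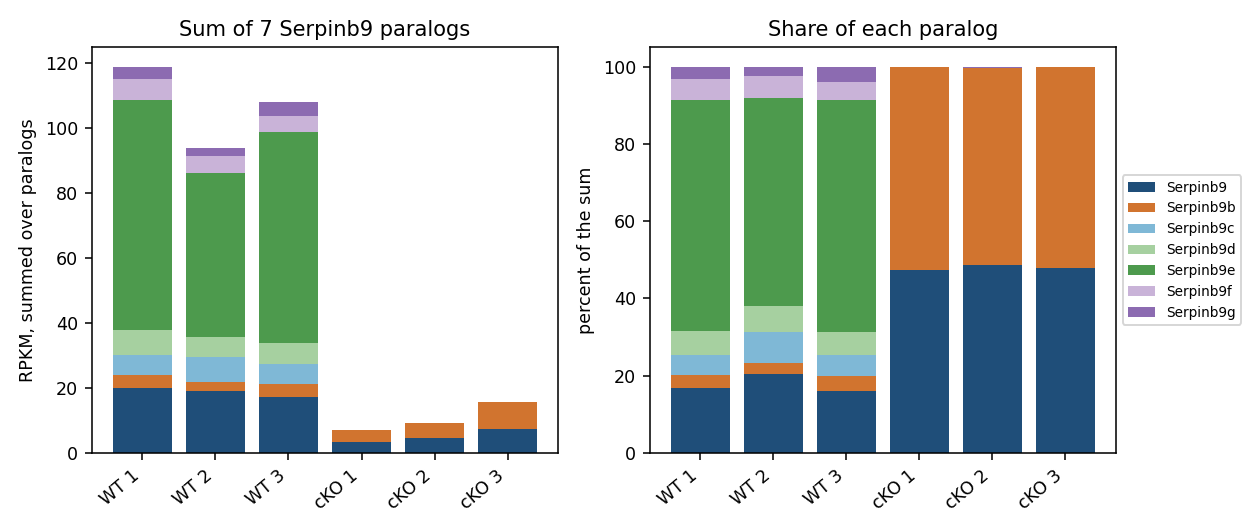
Left, summed RPKM of the 7 Serpinb9 paralogs in each library, stacked by paralog; right, the percent of that sum from each paralog. Serpinb9e makes up 53.9 to 60.1% of the sum in the WT libraries, and Serpinb9 and Serpinb9b make up nearly all of it in the cKO libraries, at 47.4 to 48.6% and 51.0 to 52.6%.

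Serpinb6a (ENSMUSG00000060147, chr13:33917918-34002794, minus strand) was the most abundant of the 10 genes in both groups. It was at 380.69, 360.07 and 379.02 RPKM in WT and 117.76, 133.47 and 120.45 RPKM in cKO, means of 373 ± 11.5 and 124 ± 8.4 (SD, n = 3), 3.01-fold lower in cKO and 2.97-fold without replicate 3. The 3 libraries of each group lay close together and far from the other group. The antisense gene 1110046J04Rik (chr13:33935567-33960181, plus strand) overlaps it and was at 10.07, 12.86 and 11.17 RPKM in WT and 0.94, 1.73 and 2.4 RPKM in cKO. Nqo2 and the start of Ripk1 also overlap its span, and whether the counting used strand is not given in the sources used here, so reads of these genes may not be fully told apart.

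Serpinb6b (ENSMUSG00000042842, chr13:32965209-32979067, plus strand), a reported inhibitor of granzyme A, was at 2.9, 2.98 and 2.51 RPKM in WT and 0.85, 0.94 and 0.75 RPKM in cKO. The means of 2.8 ± 0.251 and 0.847 ± 0.095 RPKM (SD, n = 3) were 3.3-fold apart, or 3.12-fold without replicate 3. Serpinb6a and Serpinb6b lie apart, on either side of the Serpinb9 paralogs, and the ratio of Serpinb6a to Serpinb6b was 131, 121 and 151 in WT and 139, 142 and 161 in cKO, ranges that overlap. Serpinb1a (ENSMUSG00000044734, chr13:32842092-32851185, minus strand) was at 3.16, 3.17 and 2.99 RPKM in WT and 2.44, 3.26 and 1.58 RPKM in cKO, with 1 cKO library above all WT libraries and 2 below them. Its means were 3.11 ± 0.101 and 2.43 ± 0.84 RPKM (SD, n = 3).

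By WT mean per length, the order was Serpinb6a at 373, Serpinb9e at 62.2, Serpinb9 at 18.7, Serpinb9d at 6.73, Serpinb9c at 6.67, Serpinb9f at 5.55, Serpinb9b at 3.64, Serpinb9g at 3.4, Serpinb1a at 3.11 and Serpinb6b at 2.8 RPKM. Neighbours from Serpinb9d to Serpinb9f had overlapping ranges, as did those from Serpinb9b to Serpinb1a, so their order is not fixed beyond the spread. In cKO the order was Serpinb6a at 124, Serpinb9b at 5.51, Serpinb9 at 5.11, Serpinb1a at 2.43 and Serpinb6b at 0.847 RPKM, above the run near 0. Serpinb9b and Serpinb9 overlapped there.

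The 10 genes span 1161 kb, and the run near 0 spans 347 kb from the start of Serpinb9c to the end of Serpinb9g. The gap between Serpinb9b and Serpinb9c is 107 kb. To see how the run stands among all genes, the 10790 protein-coding genes with a WT mean of at least 1 RPKM were put in chromosomal order, leaving out the genes below that level. Of these, 129 were at or under 0.05 RPKM in each cKO library, and 4 runs of 3 or more neighbours were made only of such genes. The longest held 8 genes, from Hoxb9 to Hoxb2 on chromosome 11. The serpin run and Mcpt8, Gzme, Gzmd, Gzmc and Gzmb on chromosome 14 held 5 each, and 3 predicted genes on chromosome 12 formed the last. The serpin run was chosen for this property, so its place in this count is a description.

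The neighbours of the cluster were mixed. Of 24 other protein-coding genes between the outermost serpins or within 1 Mb of them, 6 were further clade B serpins below the minimum, and 12 were tested, of which 3 were higher in cKO, 5 lower and 4 did not pass (limma on log2(RPKM + 1), Benjamini-Hochberg adjusted p over all 12223 genes, threshold 0.05). Of all genes tested, 34.7% were higher and 26.5% lower by this rule. Slc22a23 reached the minimum mean through its cKO values alone, which leaves 2 higher, 5 lower and 4 not passed among the 11 genes with at least 1 RPKM on average in both groups. The median log2 difference of the 12 was -0.16, against 0.09 over all genes and 0.13 over the 495 genes tested on chromosome 13. Tubb2a, a beta-tubulin, was at 145.29, 118.57 and 140.85 RPKM in WT and 12.03, 16.5 and 21.16 RPKM in cKO, 8.14-fold lower, with a log2 difference of -2.98 ± 0.20 (SE) and an adjusted p of 5.1e-05 (limma). Nqo2, a quinone reductase whose span lies within Serpinb6a's, was at 25.38, 25.86 and 22.15 RPKM in WT and 11.45, 13.39 and 12.07 RPKM in cKO, 1.99-fold lower with a limma adjusted p of 0.000355. Psmg4, a proteasome assembly chaperone, fell by 0.60 ± 0.11 on the log2 scale (SE, limma adjusted p = 0.00311).

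The 2 weakest calls among the neighbours were Bphl, a hydrolase, with a log2 difference of -0.29 (limma adjusted p = 0.0274), and Eci2, an enoyl-CoA isomerase, with -0.43 (limma adjusted p = 0.0257). Both were lost without any single WT library, with limma adjusted p of 0.0656 to 0.0965 for Bphl and 0.0595 to 0.0844 for Eci2. Bphl was also lost without cKO replicate 1 (limma adjusted p = 0.0535) and with a replicate block (0.0729). The genes that rose were Slc22a23, a member of a solute carrier family, from 0.01, 0.15 and 0.01 RPKM to 1.5, 2.11 and 3.27 RPKM (limma adjusted p = 0.0011; below the minimum mean and not tested without cKO replicate 2 or 3), Prpf4b, a splicing-associated kinase, 1.57-fold higher (limma adjusted p = 0.000913), and Gmds, an enzyme of fucose synthesis, 1.43-fold higher (limma adjusted p = 0.00537). Ripk1, the cell death and inflammation kinase whose start overlaps that of Serpinb6a, was at 15.78, 16.05 and 15.77 RPKM in WT and 15.69, 16.53 and 14.38 in cKO, a log2 difference of -0.03 ± 0.09 (SE) that did not pass. None of the 12 tested neighbours was near 0 in a cKO library.

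**Figure D4:**
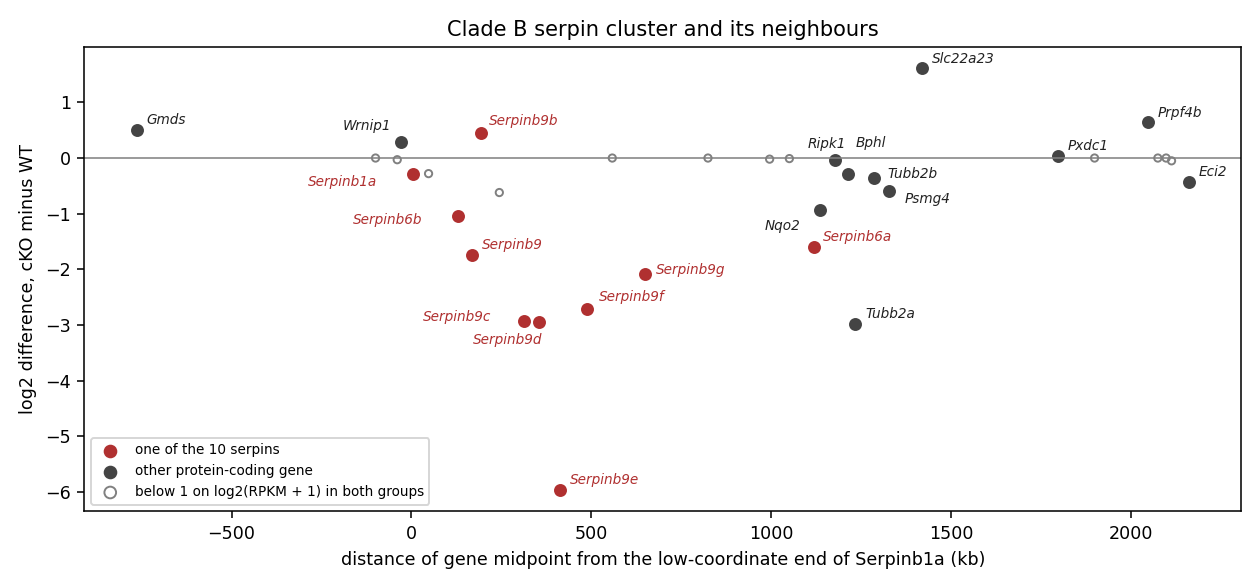
Log2 difference in log2(RPKM + 1), cKO minus WT (vertical axis), of protein-coding genes against the distance in kb of the gene's midpoint from the low-coordinate end of Serpinb1a. Red points are the 10 serpins, dark points other genes and open points genes low in both groups. The serpins reach from 0.45 for Serpinb9b to -5.97 for Serpinb9e, while most neighbours lie between -1 and 1 with Tubb2a at -2.98 and Slc22a23 at 1.61.

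Clade B serpins outside the 10 were mostly at or near 0 in both groups. Of 19 such genes, 10 were at 0 in all 6 libraries and 2 were abundant enough to be tested, and both rose. Serpinb10 reached the minimum mean through its cKO values alone, so this count says nothing of the list's direction. Serpinb8, an inhibitor of furin-like proteases on chromosome 1, was at 3.75, 3.37 and 3.35 RPKM in WT and 6.55, 7.98 and 7.46 RPKM in cKO, 2.1-fold higher (log2 difference 0.89 ± 0.11 SE, limma adjusted p = 0.000737). Serpinb10, also on chromosome 1 and annotated as a polymorphic pseudogene, was at 0, 0 and 0.2 RPKM in WT and 2.26, 4.21 and 1.21 RPKM in cKO, higher by 1.66 ± 0.32 on the log2 scale (SE, limma adjusted p = 0.00412). Without cKO replicate 2 its mean was below the minimum and it was not tested, which leaves 1 higher gene of the list. Below the minimum, Serpinb5 was at 0 in each WT library and at 1.68, 2.08 and 0.11 RPKM in cKO, with replicate 3 the lowest. Serpinb1c was at 0.17, 0.48 and 0.25 RPKM in WT and 0.1, 0 and 0.11 RPKM in cKO, and Serpinb2 was at 0.19, 0.29 and 0.37 and at 0.58, 0.08 and 0.42 RPKM.

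Serpins of other clades, which are secreted or act in the endoplasmic reticulum, differed in both directions. Of 40 listed genes, 19 were at 0 in all 6 libraries and 4 were tested, of which 1 rose, 2 fell and 1 did not pass, with a median log2 difference of -2.7. Over all genes tested, 34.7% rose and 26.5% fell. Serpine2, an extracellular inhibitor of thrombin and plasminogen activators, was at 293.62, 300.35 and 290.81 RPKM in WT and 7.19, 5.59 and 8.06 RPKM in cKO, 42.5-fold lower (log2 difference -5.23 ± 0.12 SE, limma adjusted p = 1.06e-06). Serpinf1, a secreted antiangiogenic factor without inhibitor activity, was at 182.94, 163.44 and 183.34 RPKM in WT and 11.74, 5.29 and 55.89 in cKO, 7.26-fold lower with a limma adjusted p of 0.00673, and 20.7-fold lower without cKO replicate 3. Serpinh1, the collagen chaperone, rose 1.39-fold (limma adjusted p = 0.0105).

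Several proteases that clade B serpins can face were lower in cKO as well. Of 24 listed granzymes, neutrophil and mast cell proteases, inflammatory caspases, cathepsins and plasminogen activators, 13 were tested, of which 10 fell, 0 rose and 3 did not pass. Over all genes tested, 34.7% rose and 26.5% fell. Of the 10 proteases that fell, 6 were at 0 in every cKO library and reached the minimum mean through WT alone, so the count over the tested genes favours lower calls. Among the 7 with at least 1 RPKM on average in both groups, 4 fell, 0 rose (0 also at an unadjusted p under 0.05 with limma) and 3 did not pass, with a median log2 difference of -1.16. Of these 4, Plat (limma adjusted p = 0.0261) lost its call without any single WT library, without cKO replicate 1 or 2 and with no minimum (0.0525 to 0.0826). Of the 11 below the minimum, 6 were at 0 in all libraries, while Gzmm at 0.49, 0.27 and 0.36 RPKM in WT and 0.61, 1.56 and 1.44 RPKM in cKO and Prtn3 at 0, 0.09 and 0 and at 0.36, 0.96 and 0.86 RPKM were wholly higher in cKO. With a minimum mean of 0.1 RPKM, 2 proteases were called higher. Gzmb, the protease that Serpinb9 inhibits, was at 4.01, 4.75 and 5.2 RPKM in WT and 0 in each cKO library (log2 difference -2.49 ± 0.14 SE, limma adjusted p = 2.99e-05). Gzme was at 27.38, 23.92 and 25.14 RPKM and Gzmc at 25.67, 19.24 and 21.81 RPKM in WT, and both were 0 in each cKO library (limma adjusted p = 9.53e-07 and 2.48e-06). Granzymes C to G are close copies of each other, so their separate levels are uncertain. Casp1, the inflammatory caspase, was at 5.06, 5.66 and 5.58 RPKM in WT and 0 in each cKO library (limma adjusted p = 1.41e-05). Prf1, the pore-forming protein that delivers granzymes, was 0 in all 6 libraries, as were the lymphocyte markers named above, so the granzyme values in WT came without these markers. Casp8, Casp4 and Ctsb did not pass with all libraries; Casp4 was higher without cKO replicate 1 (limma adjusted p = 0.00657) and Ctsb without cKO replicate 3 (limma adjusted p = 0.00707).

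Serpinb9 is known to be induced through NF-kB and by interferons, so genes of these pathways were read out beside it. Of 14 NF-kB genes 13 were tested, of which 3 rose, 2 fell and 8 did not pass, with a median log2 difference of 0.17. Over all genes tested, 34.7% rose and 26.5% fell, 61.2% in all, against 5 of these 13. Those that rose were the inhibitors Nfkbia and Nfkbib and the subunit Relb. Nfkbia was at 17.3, 17.04 and 19.31 RPKM in WT and 399.99, 377.13 and 338.4 RPKM in cKO, 20.8-fold higher with a limma adjusted p of 7.23e-07. Relb was 2.87-fold and Nfkbib 1.86-fold higher (limma adjusted p = 0.00069 and 0.000868). Tnfaip3, a feedback inhibitor and NF-kB target, was at 11.51, 10.94 and 14.89 RPKM in WT and 1.18, 0.39 and 2.97 RPKM in cKO (limma adjusted p = 0.00124). The other gene that fell was Ikbkg, by a log2 difference of -0.25 (limma adjusted p = 0.0341). Its call was lost with equal column totals, a replicate block, and without WT replicate 1 or 3 or cKO replicate 1 or 2 (limma adjusted p 0.058 to 0.129).

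Of 17 interferon genes 10 were tested, of which 1 rose, 7 fell and 2 did not pass, with a median log2 difference of -0.66, where 34.7% of all genes rose and 26.5% fell. Without Isg15, which reached the minimum mean through WT alone, 6 of 9 fell. The receptor chains fell: Ifngr1 was 3.45-fold, Ifngr2 2.68-fold and Ifnar2 2.54-fold lower in cKO (limma adjusted p = 0.000336, 0.00163 and 0.000587). Isg15, a ubiquitin-like interferon target, was at 2.27, 2.68 and 3.02 RPKM in WT and 0 in each cKO library (limma adjusted p = 0.000106). Irf9 was the gene that rose, by a log2 difference of 0.37 (limma adjusted p = 0.0182), a call lost without WT replicate 1, WT replicate 2 or cKO replicate 2 (0.0503 to 0.0714), with median of ratios scaling (0.0516) and with a replicate block (0.0638).

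**Figure D5:**
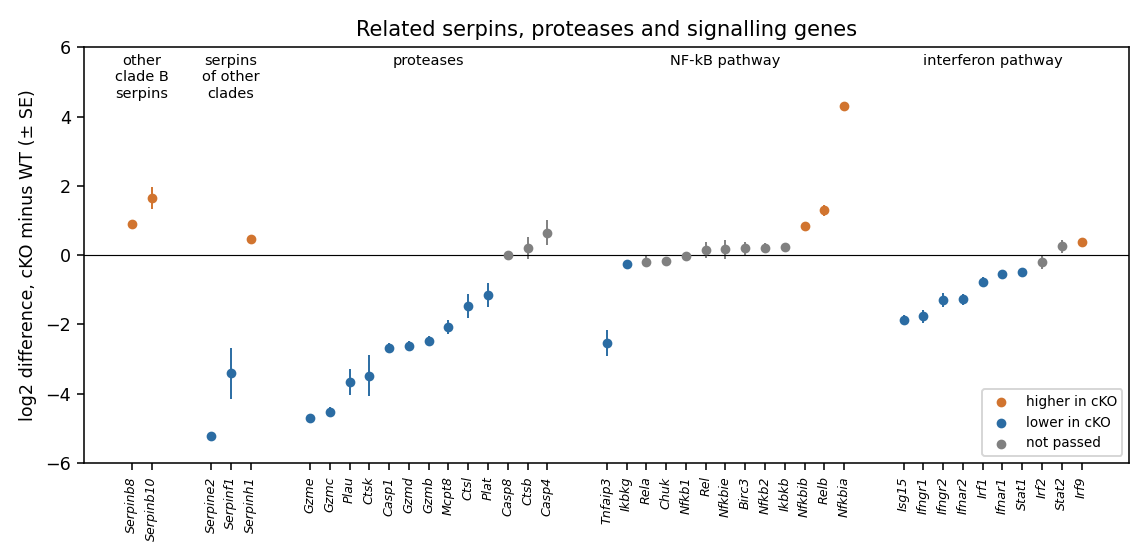
Log2 difference in log2(RPKM + 1), cKO minus WT, with its standard error (vertical axis) for the tested genes of 5 lists except 1 that is not reported here, coloured by whether it passed the limma test. Of the 13 proteases 10 are lower, 6 of them listed at 0 in every cKO library, the 2 other clade B serpins are higher, and Nfkbia at 4.3 is the highest point.

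The genes whose values over the 6 libraries were most like those of Serpinb9, by Euclidean distance on the log2(RPKM + 1) scale among tested genes, were Serf1 at 0.363, Fzd1 at 0.413, Kctd11 at 0.535, Stard13 at 0.546 and Adamts1 at 0.597. The nearest, Serf1, was at 16.98, 16.55 and 15.68 RPKM in WT and 3.24, 4.09 and 8.22 RPKM in cKO, so it shared with Serpinb9 the highest cKO value in replicate 3. Predicted genes, pseudogenes and the 10 serpins were left out of this ranking. The distance uses 6 libraries of 2 groups, so any gene of similar level and difference comes out close.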

How the data were processed

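The authors deposited RPKM values for 55471 Ensembl genes in 6 libraries, with 151 bp paired reads of stranded polyA libraries per the labels' protocols. The build GRCm38 and the tools RSEM 1.3.1, STAR 2.7.1a and cutadapt 2.8 are listed in the submitters' processing notes. RSEM in general divides reads shared between genes by estimated abundance. The annotation version is not given in the sources used here. GENCODE M21 (GRCm38) gave symbols and coordinates for 55144 identifiers and RefSeq gave promoter windows. Column totals were 678450 to 700082 RPKM. Depth was estimated from steps between low RPKM values, of which 76.6 to 92.1% lay within 0.2 of a whole fragment, where chance gives 40%.

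Genes that averaged 1 RPKM or more over all libraries were tested with limma 3.58.1 (R 4.3.3; eBayes with trend, 2-sided) on log2(RPKM + 1), with genotype as the only term and Benjamini-Hochberg adjustment over 12223 genes at 0.05. Fold changes on this scale understate low genes. Log2 differences of members come from the same scale and have no test. The fit was tested on simulated data. Identities came from pairwise alignments in Biopython 1.88, in Python 3.11.15; pandas 2.3.3, numpy 2.4.6 and matplotlib 3.10.9 served the rest.

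The members and lists were chosen with earlier results of these data known. The text names all members, other clade B serpins above the minimum and up to 4 below it, passing flanking genes within 1 Mb (up to 12), up to 4 genes of each other list by smallest p, and the 5 genes most like Serpinb9. Other named genes (Bap1, Ripk1, Casp4, Casp8, Ctsb, Plat, Prf1, Irf9, Ikbkg, Gzmm, Prtn3, the markers, antisense and run genes) were chosen after their values were seen. Alternatives were other pseudocounts, minimum means, scalings and variance priors, weights per sample, a block for the replicate number, and leaving out each library.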

Additional observations from a re-analysis of the deposited data

How the results depend on the processing

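Of 110 combinations of a member and an alternative setting, 96 moved the log2 difference by less than the spread between replicates and 14 moved it further, with no change of direction. The median of the members, -1.92, was -3.42 with a pseudocount of 0.1 RPKM, -2.36 with 0.5 RPKM and -1.81 to -2.04 when each library was left out, since genes at 0 weigh more as the pseudocount shrinks. TMM and median of ratios scaling shifted the median of all genes by -0.1 and turned the balance of calls, with 3647 higher and 3759 lower under TMM and 3627 and 3767 under median of ratios, against 4237 and 3239. With each library left out, 3504 to 4483 genes were higher and 2626 to 3623 lower. Other clade B serpins called higher were 1 with a minimum mean of 5 RPKM and 1 to 2 when a library was left out, and 1 was lower with a minimum of 0.1 RPKM or none. For serpins of other clades, 4 were higher with a minimum of 0.1 RPKM, and 5 were higher and 5 lower with no minimum. Flanking genes called lower were 3 to 6 when a library was left out, with 3 without each WT library. Proteases called higher were 2 with a minimum of 0.1 RPKM or none and 0 to 1 when a library was left out, and 6 were lower with a minimum of 5 RPKM. Of 54 gene results outside the members, 7 changed sign under some alternative, none of them called with all libraries and none above 0.21 in size (Casp8, Ctsb, Nfkb1, Nfkbie, Pxdc1, Rel and Ripk1), while 6 combinations gained and 25 lost the call. The replicate numbers showed no sign of pairing. The r of deviations was -0.017, 0.05 and -0.019 for equal numbers and -0.042 to 0.049 for unequal ones. With 3 libraries per group this cannot exclude pairing. With the replicate number as a block, 3811 genes were higher and 2938 lower, and 3 flanking genes were higher and 4 lower. For the members, 3 fragments were worth 0.0403 to 0.207 RPKM depending on library and transcript length, and levels below that could not be told from 0.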
